A study of Mus musculus with 20 samples.

Results

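The comparison described here is that of CDS with PBS at 5 days after injection (5 dpi) in mouse medial prefrontal cortex, over all 20375 genes of the authors' deposited table, which is every gene of the series. The mice were C57BL/6. Bulk RNA of 5 samples labelled CDS was compared with that of 5 samples labelled PBS, a buffered saline, all at postnatal day 47 (6 weeks of age), and the design text places the injection in the prefrontal cortex itself. The labels do not spell out CDS, and the series title describes a model in which microglia are depleted. The same table exists for 5 CDS and 5 PBS samples at postnatal day 84 (12 weeks of age), taken 6 weeks after injection, and its values are set beside those of 5 dpi. No genotype, Cre line or transgene is named in the labels, and nothing in them says that samples were pooled or came from shared litters, so the tests measure the spread between these samples.

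Microglia are the resident macrophages of the brain. Injury or cell loss in cortex is known to be followed by reactive changes in astrocytes, by division of glial and vascular cells, by entry of blood leukocytes and by deposition of extracellular matrix. Basement membranes, the thin sheets of type IV collagen, laminin, nidogen and perlecan around vessels and under the meninges, are a specialised form of extracellular matrix. Genes of microglia, of oligodendrocyte precursors and of the interferon response make up 3 lists of 572 measured genes, and they were set aside so that the rest of the response could be described. In bulk tissue, fewer cells of a type and less RNA per cell cannot be told apart.

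Promoter sequences are shown first for called members of 2 gene lists, mitosis and DNA replication, and for a promoter shared by 2 collagen genes, because all 5 of the genes they are named for rose at 5 dpi. The windows run from 250 bases before to 50 bases after the start of the gene and come from RefSeq on GRCm38.p6, printed 5′ to 3′ on the strand of the gene. Capitals mark the CCAAT box on either strand, the element TTTGAA on either strand, which is known as the cell cycle genes homology region, and the E2F-type element TTTGGCGC on either strand. TTTGAA was marked in the mitosis genes and TTTGGCGC in the replication genes, and no 2 matches overlap in the windows printed.
Ccnb2 (chr9:70421505-70421804, minus strand): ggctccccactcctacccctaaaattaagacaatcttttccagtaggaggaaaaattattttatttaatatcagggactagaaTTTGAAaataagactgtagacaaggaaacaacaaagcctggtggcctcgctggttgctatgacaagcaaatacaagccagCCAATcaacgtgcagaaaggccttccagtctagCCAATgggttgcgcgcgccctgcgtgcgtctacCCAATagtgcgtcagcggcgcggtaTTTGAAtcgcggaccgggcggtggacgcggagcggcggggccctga
Plk1 (chr7:122159185-122159484, plus strand): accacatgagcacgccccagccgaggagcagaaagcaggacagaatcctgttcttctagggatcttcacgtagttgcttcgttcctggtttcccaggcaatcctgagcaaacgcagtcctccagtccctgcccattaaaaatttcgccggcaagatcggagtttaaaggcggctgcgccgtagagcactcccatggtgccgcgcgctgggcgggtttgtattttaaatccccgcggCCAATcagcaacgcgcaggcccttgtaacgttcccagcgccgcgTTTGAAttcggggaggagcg
Mcm6 (chr1:128359656-128359955, minus strand): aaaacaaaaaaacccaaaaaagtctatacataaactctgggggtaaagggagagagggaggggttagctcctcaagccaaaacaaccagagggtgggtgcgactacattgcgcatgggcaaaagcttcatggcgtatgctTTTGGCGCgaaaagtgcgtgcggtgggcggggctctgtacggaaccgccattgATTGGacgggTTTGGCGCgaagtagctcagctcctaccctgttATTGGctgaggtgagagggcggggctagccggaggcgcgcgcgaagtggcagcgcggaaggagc
Mcm3 (chr1:20820263-20820562, minus strand): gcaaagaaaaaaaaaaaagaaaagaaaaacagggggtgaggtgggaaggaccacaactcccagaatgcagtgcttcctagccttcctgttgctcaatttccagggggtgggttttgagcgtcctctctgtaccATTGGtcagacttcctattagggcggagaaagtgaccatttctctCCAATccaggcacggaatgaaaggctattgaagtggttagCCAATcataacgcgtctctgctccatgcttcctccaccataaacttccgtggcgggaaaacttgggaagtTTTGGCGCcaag
Col4a1 (chr8:11312777-11313076, minus strand): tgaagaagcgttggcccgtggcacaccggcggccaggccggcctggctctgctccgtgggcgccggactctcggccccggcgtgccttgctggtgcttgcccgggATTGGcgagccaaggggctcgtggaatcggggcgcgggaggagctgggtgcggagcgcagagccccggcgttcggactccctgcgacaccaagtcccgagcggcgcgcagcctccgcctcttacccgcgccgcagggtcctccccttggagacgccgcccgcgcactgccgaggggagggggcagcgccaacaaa

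The Ccnb2 window holds 3 CCAAT boxes and 2 TTTGAA elements, and the Plk1 window holds 1 of each. The Mcm6 window holds 2 CCAAT boxes and 2 TTTGGCGC elements, and that of Mcm3 holds 3 and 1. Of the 29 mitosis genes called higher, 22 had a window, and 18 of these, 81.8%, held TTTGAA. Among all 13065 genes of the table with a window the share was 14.8%. CCAAT was in 18 of the same 22, against 42.1% of all genes. Of the 20 mitosis genes with a window that were not called, 11 held TTTGAA and 12 held CCAAT. Of the 9 DNA replication genes called higher, 7 had a window, and 3 of these held TTTGGCGC, against 1.03% of all genes, while 0 of the 7 held TTTGAA. Of the 37 replication genes with a window that were not called, 6 held TTTGGCGC and 8 held TTTGAA. A match of letters is a description of the window and was not tested for binding.

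With a q-value under 0.05, 1207 genes of the authors' deposited table are named called here, which is 5.92% of the genes tested. Of these, 560 were higher in CDS (2.75%) and 647 were lower (3.18%). The set-aside lists held 224 of the called genes, 12 higher and 212 lower. Outside them stood 548 called higher, 2.77% of 19803 genes, and 435 called lower, 2.20%. Thus without the listed genes more genes rose than fell. Among changes of at least 1.5-fold the order was the other way, with 204 higher and 217 lower. The lists need not hold every gene of microglia or precursors. Which of the 435 falls come from these cells was not tested. An unadjusted p under 0.05, recovered from the q-values, was found for 19.1% of all genes.

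Most changes outside the set-aside lists were small. In the authors' deposited table, 562 of the 983 differed by less than 1.5-fold, 344 of them higher and 218 lower. From 2-fold to 4-fold there were 79 higher and 105 lower genes, and at 4-fold or more 19 higher and 43 lower. The median log2 fold change was 0.43 among the rises and -0.58 among the falls. The tables hold no value for single samples, so that levels by sample, overlap between groups and depth cannot be shown. Errors below are standard errors (SE) implied by the log2 fold change and the recovered p.

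**Figure D1:**
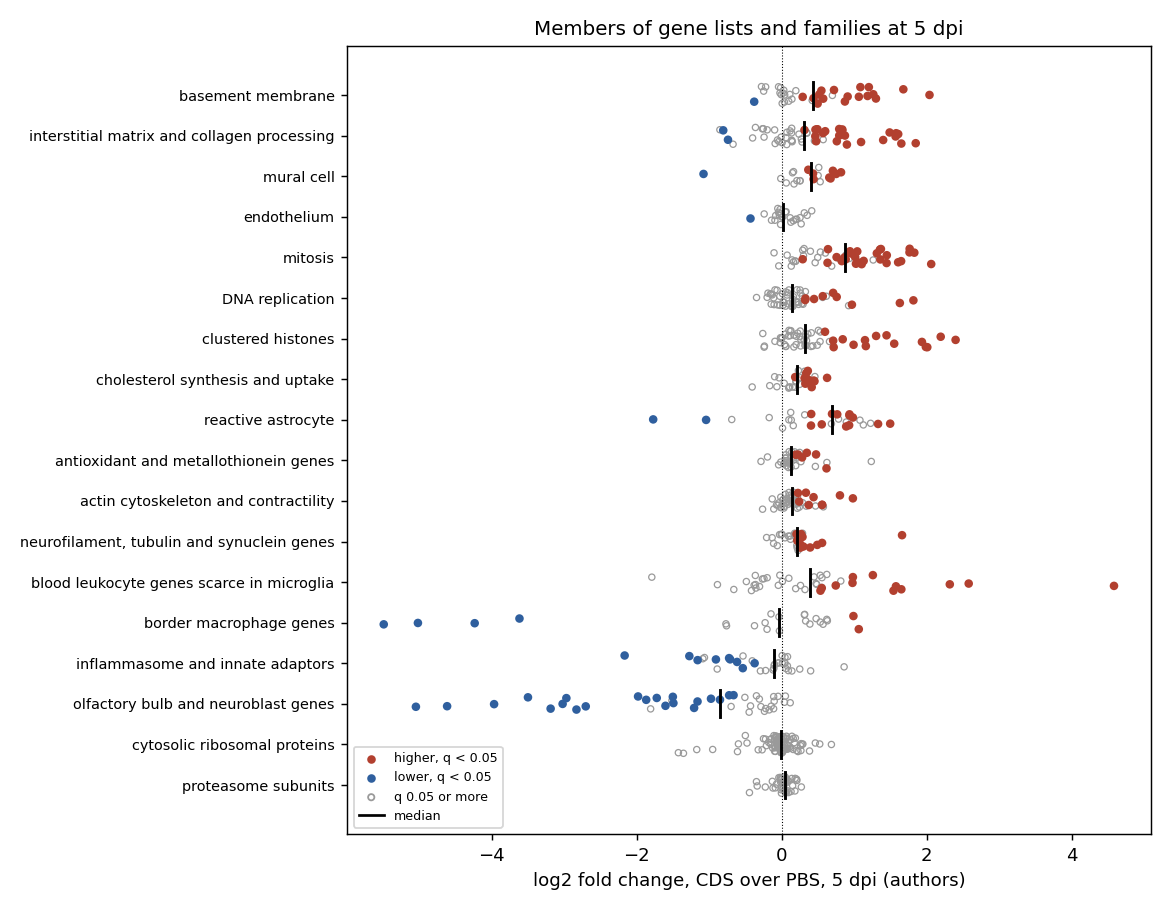
Log2 fold change of CDS over PBS at 5 dpi (x axis) for members of gene lists and families (rows). Filled points are called at q under 0.05, red higher and blue lower, open points are not called and bars are medians; the matrix and mitosis lists lie mostly to the right, with medians from 0.31 to 0.87, and ribosomal proteins centre at -0.01.

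Many basement membrane genes rose. Of 38 listed genes, all measured and listed with these values known, 17 rose, 1 fell and 20 were not called in the authors' deposited table, and the median log2 fold change was 0.43 against -0.02 for all genes. Col15a1, a collagen at the outer face of vascular basement membranes (chromosome 4, 47208161 to 47313167, plus strand), had the smallest q outside the set-aside lists. Its log2 fold change was 2.04, a 4.11-fold rise, with SE 0.14 (q = 2.55e-43, the authors' deposited table). The laminin alpha chain Lama1 rose by 1.09 with SE 0.11 (q = 1.41e-19), and the gamma chain Lamc3 by 0.87 with SE 0.11 (q = 5.26e-13), in the authors' deposited table. Nid1 and Nid2, the nidogens that link laminin to collagen, rose by 1.07 and 0.72 in the authors' deposited table. Col18a1, the source of endostatin, rose by 1.68 in the authors' deposited table. Perlecan, encoded by Hspg2, stood at 0.52 and agrin, encoded by Agrn, at -0.02, neither of them called (the authors' deposited table). Lama3, an epithelial laminin chain, was the member that fell, by 0.38 in the authors' deposited table.

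Type IV collagen is built from 6 chains whose genes lie in 3 head-to-head pairs. Col4a1 and Col4a2 on chromosome 8 have start sites 21 bases apart in GENCODE, so the window printed for Col4a1 covers the start of both, with 1 CCAAT box on the opposite strand and a GC content of 74.0%. They rose by 0.91 and 0.50 in the authors' deposited table. Col4a6 and Col4a5 on the X chromosome, with start sites 1309 bases apart, rose by 1.30 and 1.20 (the authors' deposited table, SE 0.20 and 0.18). Col4a3 and Col4a4 on chromosome 1, 72 bases apart, stood at 1.19 and 0.70 in the authors' deposited table, of which Col4a3 was called (q = 0.0112) and Col4a4 was not. Hence 5 of the 6 chains rose. Of the 17 basement membrane genes called higher, 11 had a promoter window and 8 of these held CCAAT. Col4a1 and Col4a2, which share a start region, both count among the 8. Of the basement membrane genes not called, 16 had a window and 4 of these held CCAAT. Among all genes with a window the share was 42.1%. The list was drawn up with the values known, so these counts are a description only.

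Across the table, 797 pairs of protein-coding genes had divergent start sites that overlapped by at most 200 or lay at most 1000 bases apart. In 57 of them at least 1 gene was called, and in 5 both were. All 5 pairs were higher in both genes: 4 were pairs of histone H2A and H2B genes and the fifth was Col4a1 with Col4a2. The histone genes of a cluster are near-identical, and reads could be split among them by the counting, so that their separate values are uncertain.

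The interstitial matrix and the enzymes that modify collagen showed a like picture. Of 59 measured genes, 23 rose and 2 fell; the median was 0.31 per the authors' deposited table. Col13a1, a transmembrane collagen, rose by 1.57 with SE 0.19 (q = 1.46e-13, the authors' deposited table). The small proteoglycan Lum rose by 1.58 with SE 0.24, and Tgfbi, a matrix protein induced by TGF-beta, by 1.65 with SE 0.23, in the authors' deposited table. Postn, Thbs4 and Loxl2, a periostin, a thrombospondin and a collagen cross-linking enzyme, rose by 1.40, 1.49 and 1.61 in the authors' deposited table. The fibrillar collagen Col3a1 rose by 1.85 with a large SE of 0.53 (q = 0.0142), while Col1a1 and Col1a2 stood at 0.27 and 0.59 and were not called (the authors' deposited table). Fn1 and Tnc, fibronectin and tenascin C, stood at -0.27 and -0.25 in the authors' deposited table, not called either. The falls were the proteoglycan Fmod and the protease Tll1, at -0.74 and -0.81 in the authors' deposited table.

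Over whole families, 18 of 44 collagen genes rose and 3 fell, and 6 of 11 laminin genes rose and 1 fell, with medians of 0.35 and 0.29 in the authors' deposited table. The collagens that fell were Col20a1, Col24a1 and Col27a1, at -0.67, -0.61 and -0.50 in the authors' deposited table. Cemip, a hyaluronan-binding protein that takes part in its breakdown, rose by 0.54 with SE 0.08 (the authors' deposited table, q = 2.65e-08). Markers of the cells that can make matrix did not all move. Of 20 mural cell genes, 8 rose and 1 fell; the median was 0.40 per the authors' deposited table. The channel subunit Abcc9, the T-box factor Tbx18 and the receptor Pdgfrb, all known from pericytes, rose by 0.67, 0.82 and 0.37 in the authors' deposited table, and Cspg4, which oligodendrocyte precursors also express, fell by 1.08. Of 20 fibroblast genes, 4 rose and 2, Fmod and the precursor gene Pdgfra, fell and their median was 0.11, and of 25 endothelial genes 0 rose and 1, the lipid transporter Mfsd2a, fell; the median was 0.01 per the authors' deposited table. The part of cell number in the matrix values was not tested.

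**Figure D2:**
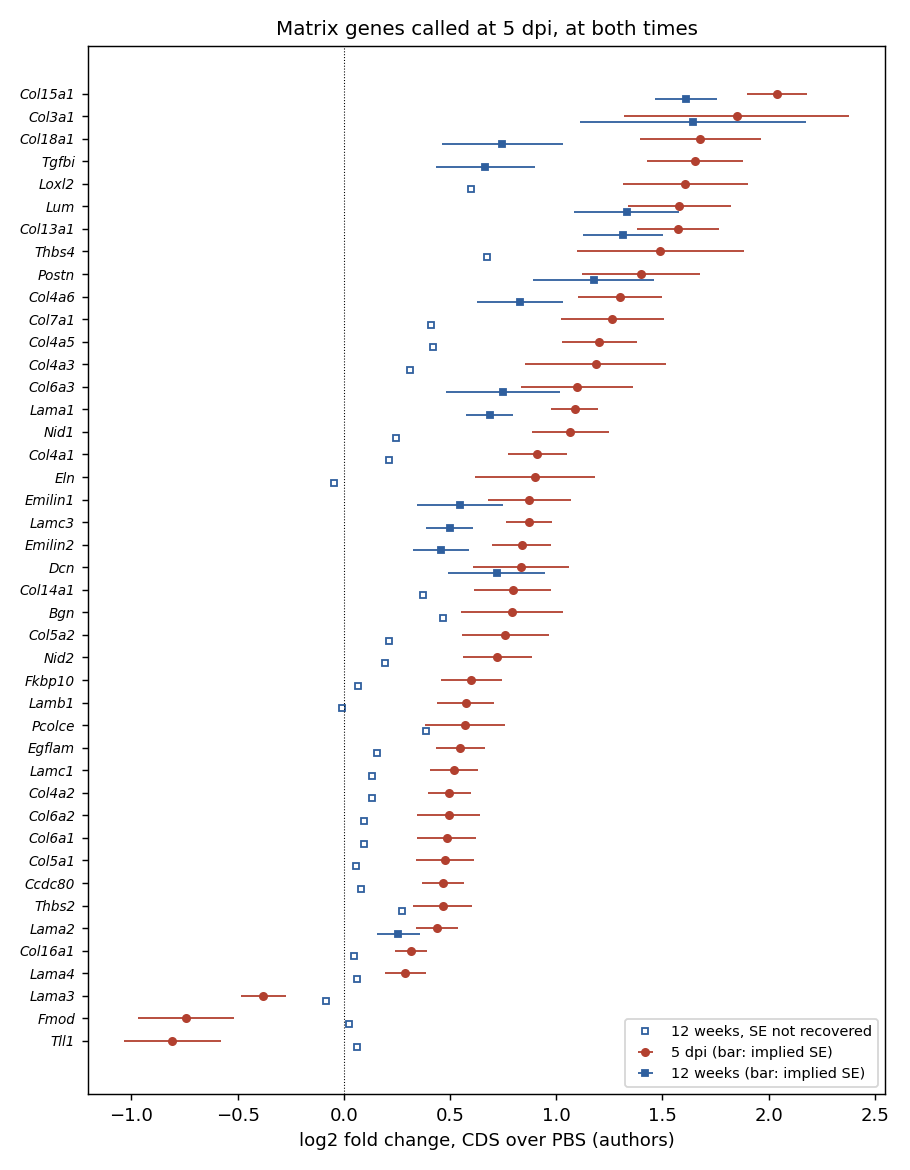
Log2 fold change of CDS over PBS (x axis) of the matrix genes called at 5 dpi (rows), at 5 dpi (red circles) and 12 weeks (blue squares). Bars are implied SE, and open squares have none because the 12-week p could not be recovered; Col15a1 stands at 2.04 and 1.61, Col4a1 at 0.91 and 0.21.

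Many genes of cell division rose. Of 53 measured mitosis genes, 29 rose, 0 fell and 24 were not called, with 51 of 53 above 0 and the median at 0.87 per the authors' deposited table. Among them were the chromosomal passenger kinase Aurkb at 1.83, the spindle pole kinase Aurka at 1.07, the anaphase ubiquitin-conjugating enzyme Ube2c at 1.76 and the checkpoint kinase Bub1 at 1.65 in the authors' deposited table. The proliferation antigen Mki67 and the topoisomerase Top2a both rose by 1.45 in the authors' deposited table. Pimreg, a mitotic regulator, had the largest rise of the list at 2.06 with SE 0.42 (the authors' deposited table). The cyclin Ccnb2 and the kinase Plk1, whose promoters are shown above, both rose by 0.87 in the authors' deposited table. Ccnb1, another B-type cyclin, stood at 0.14 and Cdk1 at 1.26, neither of them called (the authors' deposited table).

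Replication genes moved less. Of 54 measured, 9 rose and 0 fell; the median was 0.15 per the authors' deposited table. The helicase subunits Mcm6 and Mcm3 rose by 0.45 and 0.57, the loading factor Cdc6 by 0.97 and the PCNA-binding protein Pclaf by 1.82 in the authors' deposited table. The sliding clamp Pcna itself stood at 0.01 in the authors' deposited table, not called. Tk1 and Rrm2, which make deoxynucleotides in S phase, rose by 1.93 and 0.90 in the authors' deposited table. Of 51 condensin, cohesin and centromere genes 8 rose and 0 fell, among them the kinetochore genes Knl1, Nuf2 and Spc25 at 1.15, 1.07 and 1.16 in the authors' deposited table; of 37 kinesins, the motors of spindle and axon, 8 rose, with Kif4 at 1.07 (SE 0.18) and Kif20a at 1.17 in the authors' deposited table.

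Clustered histone genes are transcribed in S phase and carry no poly(A) tail in dividing cells, so that they are seen in libraries of total RNA such as these. Of 55 measured, 15 rose and 0 fell; the median was 0.32 per the authors' deposited table. The linker histone Hist1h1b rose by 1.30 with SE 0.20, and Hist1h3b and Hist1h3c by 2.19 and 1.99, in the authors' deposited table. Hist1h2an had the largest rise, 2.40 with SE 0.46 (the authors' deposited table). Hist1h2ak, Hist1h2bn and Hist1h1b, at 0.71, 0.99 and 1.30 in the authors' deposited table, are next to each other on chromosome 13 from 21753435 to 21780625, one of the runs of neighbouring called genes described below.

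Some genes of cholesterol synthesis rose by small amounts. Of 28 measured genes of cholesterol synthesis and uptake, 10 rose and 0 fell; the median was 0.21 per the authors' deposited table. Stard4, a carrier of cholesterol within the cell, rose by 0.45 with SE 0.11 in the authors' deposited table. Acat2, Idi1 and Sc5d, enzymes of the pathway, rose by 0.34, 0.33 and 0.19 in the authors' deposited table. Npc1 and Npc2, which move cholesterol out of lysosomes, stood at -0.10 and -0.07 in the authors' deposited table, not called. Of 37 genes of fatty acid synthesis and desaturation, 4 rose and 0 fell; the desaturases Fads2 and Fads3 rose by 0.31 and 0.27 and Slc25a1, the mitochondrial citrate carrier, by 0.24 in the authors' deposited table. Mlxipl, a glucose-responsive factor that drives lipid genes, fell by 1.68 with SE 0.28 (the authors' deposited table). Of 44 genes of fatty acid oxidation and peroxisomes 1 rose, 2.27% against 2.75% of all genes.

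Reactive astrocyte genes included several further rises. Of 28 measured, 12 rose and 2 fell; the median was 0.69 per the authors' deposited table. The intermediate filament Vim rose by 0.98, the oncostatin M receptor Osmr by 0.69, the complement component C4b by 0.94, the metalloreductase Steap4 by 0.89 and the membrane protein Emp1 by 0.93 in the authors' deposited table. Lcn2 and Timp1, often high in reactive astrocytes, stood at 1.23 and 1.13 but were not called (the authors' deposited table). The chemokine Cxcl10, which interferon also induces, and the kinase Sphk1 fell, by 1.77 and 1.04 in the authors' deposited table.

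Some antioxidant and cytoskeletal genes rose. Of 36 antioxidant and metallothionein genes, 6 rose and 0 fell, with 32 of 36 above 0 and the median at 0.13 in the authors' deposited table. They were the superoxide dismutase Sod3 at 0.62, the peroxiredoxin Prdx6 at 0.47, the metallothionein Mt1 at 0.35, Txn1 at 0.28, Cat at 0.23 and Keap1, which restrains the factor NRF2, at 0.19 (the authors' deposited table). The NRF2 targets Nqo1, Gclm and Txnrd1 stood at 0.07, 0.07 and 0.06 in the authors' deposited table and were not called, and Osgin1, another, stood at 1.24 and was not called either. Hmox1, an NRF2 target outside the list that makes haem oxygenase, rose by 0.99 in the authors' deposited table (q = 0.0473). Of 49 actin and contractility genes, 9 rose and 0 fell around their median of 0.15, among them Tagln2 at 0.80, Tpm1 at 0.24, Actg1 at 0.37 and Tmsb10 at 0.56 in the authors' deposited table. Of 32 neurofilament, tubulin and synuclein genes, 12 rose and 0 fell; Prph, a filament protein of peripheral neurons, rose by 1.66, Uchl1 by 0.49 and Nefh by 0.39 in the authors' deposited table, while Nefl stood at 0.00. All 5 measured FXYD proteins, which regulate the sodium pump, rose, from 0.26 for Fxyd6 to 0.48 for Fxyd2 in the authors' deposited table.

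Genes of blood leukocytes that microglia scarcely express gave 12 rises and 0 falls among 40 measured; the median was 0.38 per the authors' deposited table. The potassium channel Kcnn4 rose by 2.32 with SE 0.39, the phosphatase Ptpn7 by 2.58, the galectin Lgals1 by 0.98 and Cytip by 1.54 in the authors' deposited table. The transcription factor Runx3 stood highest at 4.59, with an implied SE above 1 (the authors' deposited table). S100a8 and S100a9, which define neutrophils, stood at -0.66 and -0.89 and were not called (the authors' deposited table). Vim, Lgals1, Cd44 and Tgfbi, 4 of the 12, are also made by astrocytes, vessels or fibroblasts. Cxcl5, a chemokine that attracts neutrophils (chromosome 5, 90759360 to 90761624, plus strand), rose by 3.71, 13.1-fold, with SE 0.29 (the authors' deposited table, q = 1.64e-33). Of 30 chemokines and their receptors 4 rose and 4 fell; Ccr1, Ccr2 and Cxcr4 rose by 1.55, 1.26 and 0.96 in the authors' deposited table. Cyp4f18, which breaks down leukotriene B4 in neutrophils, rose by 2.74 with SE 0.50 (the authors' deposited table).

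Border macrophages line the meninges and vessels. Of 23 measured genes of these cells, 2 rose and 4 fell, and the falls were large: Cd163, a scavenger receptor for haemoglobin, fell by 3.62 with SE 0.27, and the lectins Cd209f, Cd209g and Cd209b stood at -5.49, -5.02 and -4.24 with SE 0.96, 1.04 and 1.01 (the authors' deposited table). The shared markers Mrc1, Lyve1 and Pf4 stood at -0.20, -0.38 and 0.57 and were not called (the authors' deposited table). The scavenger receptor Msr1 and the reductase Cbr2 rose, by 0.99 and 1.06 in the authors' deposited table. The Cd209 genes are close copies, so their separate values are uncertain.

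Several genes of innate sensing fell. Of 35 inflammasome and adaptor genes, 0 rose and 9 fell; the median was -0.11 per the authors' deposited table; 5 of the 35 also stand in a set-aside list. The inflammasome adaptor Pycard fell by 1.27 and the sensors Nlrp3 and Aim2 by 1.16 and 0.73 in the authors' deposited table. The adaptor Card9 fell by 0.91 and the pore former Gsdmd by 0.71 in the authors' deposited table. The cytokine Il1a, a member of a set-aside list, fell by 2.17 in the authors' deposited table. Myd88 and Irak1, adaptors used by most cell types, stood at 0.06 and 0.04 in the authors' deposited table, not called. Of 38 genes of the TNF superfamily and NF-kappaB pathway 0 rose and 1, Tnfsf10, fell, by 0.58 in the authors' deposited table. That is 2.63% against 3.18% of all genes, and the median of this list was 0.00 in the authors' deposited table.

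Other falls with a small q outside the set-aside lists are given next. The cell types they came from were not tested. Snx22, a sorting nexin (chromosome 9, 66065176 to 66069719, minus strand), fell by 2.60, 6.05-fold, with SE 0.21 (q = 2.12e-31, the authors' deposited table). Lad1, an anchoring filament protein (chromosome 1, 135818598 to 135833342, plus strand), fell by 4.14, 17.6-fold, with SE 0.46 (the authors' deposited table). Gucy2f, a guanylyl cyclase known from photoreceptors, fell by 2.29 with SE 0.29, and Pde3b, which breaks down cyclic nucleotides, by 0.79 with SE 0.06, in the authors' deposited table. Prkcq, a protein kinase C, fell by 1.27, the transporter Abca9 by 0.93, the zinc finger factor Zfp488, which promotes oligodendrocyte differentiation, by 1.77 and the calpain protease Capn3 by 0.78 in the authors' deposited table. Fam89a, Liph, Rnase4, Inava and Galnt10 were further falls among the smallest q-values, at -3.54, -1.47, -1.02, -1.53 and -0.59 in the authors' deposited table. Of 27 genes of ERK feedback and output 0 rose, 24 were not called and 3 fell, against 3.18% of all genes, namely the inhibitors Spred1 and Spred3 at -0.25 and -0.28 and the Ets factor Etv4 at -0.67 in the authors' deposited table.

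Many genes known from the olfactory bulb and from migrating neuroblasts, another brain region and cell type, fell. Of 41 measured, 0 rose and 21 fell, 3 lay above 0, and the median was -0.85 in the authors' deposited table. The mitral and tufted cell factors Tbx21 and Eomes stood at -3.97 and -2.97, and the calcium-binding protein Scgn at -2.83, all called (the authors' deposited table). The progenitor homeobox gene Gsx1 and the sensory axon gene S100a5 stood at -4.62 and -5.05 with implied SE above 1 (the authors' deposited table). The VIP receptor Vipr2, Doc2g, the stem cell receptor Lgr5, Ebf3 and Sp8 stood at -3.19, -2.70, -1.98, -1.87 and -1.72 in the authors' deposited table, all called, and Dcx, which marks young neurons, fell by 0.66. Omp and Cdhr1, defining markers of olfactory axons and mitral cells, stood at -1.81 and -1.51 and were not called, and the interneuron factors Dlx1, Dlx2 and Dlx5 lay between -0.29 and 0.05 in the authors' deposited table. At 12 weeks the median of the same genes was -0.02 and 0 of them was called. The list was drawn up with these falls known, and the share of bulb tissue in the samples was not tested.

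Homeobox genes included some of the same falls, so their count is not separate from that of the bulb list. Of 63 measured homeobox genes, 0 rose and 7 fell, which is 11.1% against 3.18% of all genes. Their median was -0.02 per the authors' deposited table. Irx1 fell the furthest, by 6.03 with SE 0.99, and Meis1, Pbx3, Zfhx3 and Zfhx4, of which the bulb list holds all 4, fell by 1.49, 1.16, 0.85 and 0.73 in the authors' deposited table. Markers of cortical excitatory neurons, the cells that the labelled tissue should hold, were all measured. Of 16, 1 rose, Neurod2 by 0.39, and 0 fell, with Slc17a7 at 0.43 and Camk2a at -0.18 not called in the authors' deposited table. The tables give no levels, so the tissue label could not be checked against the abundance of these markers.

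Called genes were sometimes neighbours. There were 12 runs of at least 3 adjacent measured genes called in the same direction, 3 higher and 9 lower. On chromosome 7 (31032722 to 31070935) Fxyd5, Fxyd7, Fxyd1 and Lgi4, which encodes a Schwann cell signal, rose by 0.30, 0.39, 0.48 and 0.38 in the authors' deposited table. On chromosome 10 (81328731 to 81366225) Tbxa2r, the thromboxane receptor, Hmg20b and Mfsd12 rose by 0.85, 0.41 and 0.26 in the authors' deposited table. On chromosome 12 (117877982 to 118852576) the dynein gene Dnah11 and the factors Sp4 and Sp8 stood at -3.12, -0.19 and -1.72, all lower (the authors' deposited table). On chromosome 2 (164354070 to 164415448) the protease inhibitor Slpi, Matn4 and Rbpjl fell by 2.02, 3.65 and 2.17 in the authors' deposited table, of which Matn4 belongs to the precursor list. The 3 Cd209 genes on chromosome 8 (3917655 to 4137707) formed another run. The other 7 runs were the histone run above, the complement genes C1qa, C1qb and C1qc, interferon-linked genes at 2 places, and predicted transcripts at 3, one of them around the precursor gene Lhfpl3.

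Small changes varied with the length of the gene. Protein-coding genes were divided into 10 equal groups by the span from start to end in GENCODE. In the group with the shortest span, a median of 2.89 kb, 93 genes rose and 28 fell, and the median log2 fold change of all genes in it was 0.08 in the authors' deposited table. In the group with the longest span, a median of 233.8 kb, 30 rose and 91 fell, and the median was -0.07 (the authors' deposited table). Called falls of less than 1.5-fold had a median span of 72.4 kb and called rises of less than 1.5-fold one of 15.2 kb, against quartiles of 10.4 and 61.2 kb over all 15454 protein-coding genes. Falls of 1.5-fold or more had a median span of 24.7 kb and rises of that size one of 15.7 kb. The long genes included Magi1, Lrrtm4, Cntn4 and Il1rapl1, synaptic and adhesion genes, at -0.25, -0.33, -0.29 and -0.30 in the authors' deposited table. At 12 weeks the medians of the shortest and longest groups were 0.02 and -0.01 in the authors' deposited table. The part of span in the small changes of any list was not tested.

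**Figure D3:**
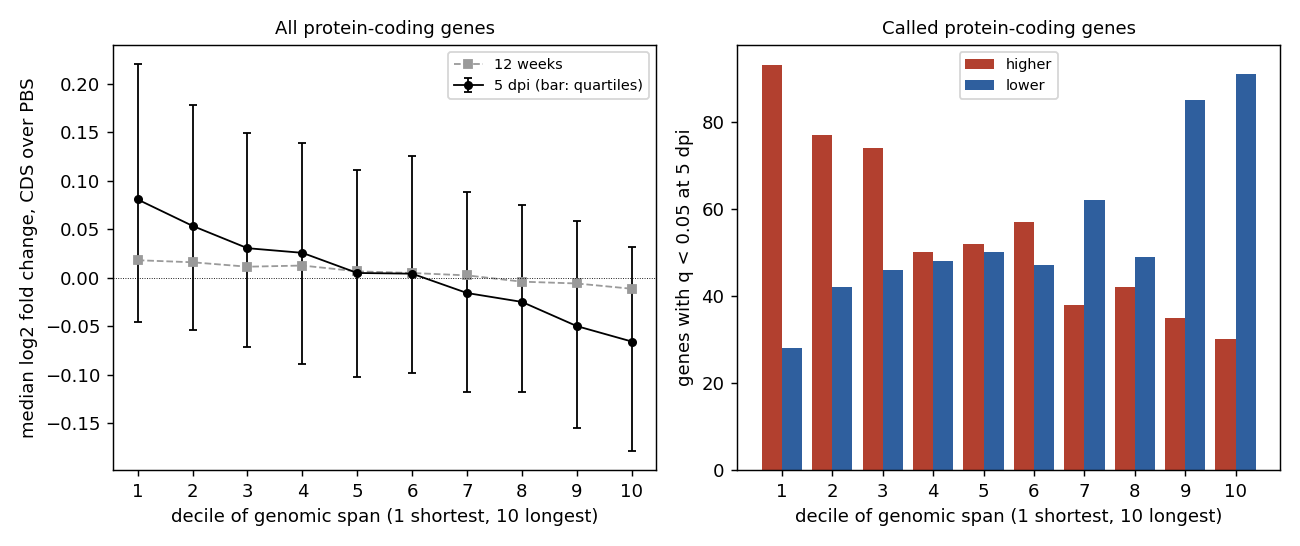
Left, median log2 fold change of CDS over PBS (y axis) of protein-coding genes in 10 equal groups by genomic span (x axis), at 5 dpi (black, bars are quartiles) and 12 weeks (grey). Right, number of those genes called higher (red) and lower (blue) at 5 dpi; from the shortest to the longest group the rises drop from 93 to 30 and the falls climb from 28 to 91.

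Median values differed between transcript classes. Transcripts of the class TEC, loci whose protein-coding status awaits experiment, had a median log2 fold change of -0.48, against 0.00 for protein-coding genes, per the authors' deposited table. Of 1441 TEC transcripts 45 were called lower, which is 3.12% and close to the 3.18% of all genes, and 1 was called higher. Of 15454 protein-coding genes 548 were called higher and 548 lower, 3.55% each way. Sense-intronic transcripts had a median of -0.52 and processed pseudogenes one of -0.30 in the authors' deposited table. Of 45 TEC transcripts called lower, 35 lay within a protein-coding gene on the same strand, and in 6 of these the host gene was called lower too. How many of all 1441 TEC transcripts lie within such a gene was not counted, so the 35 have no share to be set against. Several of the 35 lie in the same host, Auts2, which stood at -0.55 and was not called (the authors' deposited table). Zinc finger genes named Zfp, most of them of the repressor type, gave 0 rises and 16 falls of 369. The falls are 4.34% of them, against 3.18% of all genes. Of the 369, 282 lay below 0, against 11213 of all 20375 genes. The median of the Zfp genes was -0.10, against -0.02 for all genes, and their median span was 17.3 kb (the authors' deposited table). Zfp946, Zfp619 and Zfp97 fell by 0.34, 0.38 and 0.61 in the authors' deposited table.

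A microRNA gene and its host were both lower. Mir128-1 (chromosome 1, 128202361 to 128202430, plus strand) lies inside R3hdm1 (128103301 to 128237736, plus strand). In the authors' deposited table Mir128-1 fell by 1.18 with SE 0.29 (q = 0.00197) and R3hdm1 by 0.52 with SE 0.17 (q = 0.0473). Its products are abundant in neurons, and the mature sequences, from RefSeq on GRCm38.p6, are given with the seed, bases 2 to 8, in capitals.
mmu-miR-128-3p: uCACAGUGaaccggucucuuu
mmu-miR-128-1-5p: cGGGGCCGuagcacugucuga
Mir128-2, which gives the same 3p product from within Arpp21, stood at -1.12 with SE 0.72 and was not called (the authors' deposited table). Libraries of this kind can hold reads of the host transcript that cross the locus, and the mature microRNA was not measured. Per the authors' deposited table, microRNA genes lay low as a class at 5 dpi. Their 168 log2 fold changes centred at -0.41, with 2 genes called lower and 0 higher. The share of this class shift in the fall of Mir128-1 was not tested.

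Some families held no called gene. Of 80 families examined, 14 had 0 called members. They included 99 cytosolic ribosomal proteins, 47 proteasome subunits, 22 vacuolar ATPase subunits, 62 F-box proteins and 24 glutamate receptor genes. Their medians were -0.01, 0.04, 0.02, 0.03 and -0.10 in the authors' deposited table. Before adjustment, 8, 3, 4, 9 and 5 of their members had a recovered p under 0.05, against 19.1% of all genes. Hedgehog, YAP and TEAD, polyamine and aminoacyl tRNA synthetase lists of 18, 25, 24 and 23 genes likewise had 0 called, with 1, 7, 6 and 2 at an unadjusted p under 0.05. With 5.92% of all genes called, lists of 18 to 25 genes would hold few calls at that share. Of 32 unfolded protein response genes 1 rose, and of 30 heat shock proteins 2, Hspa12b and Hspb6, by 0.39 and 0.67 in the authors' deposited table. These are 3.1% and 6.67%, against 2.75% of all genes. Of 310 solute carriers 14 rose and 15 fell, 4.52% and 4.84% against 2.75% and 3.18% of all genes.

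The comparison at 12 weeks asked how much of this was still seen. In the authors' deposited table of that time 39 genes were called, 0.191% of all. Of these, 36 were also called at 5 dpi, with the same sign in all 36, which is 92.3% of the 12-week calls and 2.98% of those at 5 dpi. Outside the set-aside lists 24 genes were called at both times, 15 higher and 9 lower. The 3 genes called at 12 weeks alone were Spp1, Fbln2 and Acot11. The 2 comparisons have separate control samples.

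The rises called at both times included matrix and meningeal genes. In the authors' deposited table Col15a1 stood at 2.04 at 5 dpi and 1.61 at 12 weeks, Col13a1 at 1.57 and 1.31, Lum at 1.58 and 1.33, Postn at 1.40 and 1.18, and Tbx18 at 0.82 and 0.74. Lama1, Lamc3 and Col4a6 stood at 1.09 and 0.69, 0.87 and 0.50, and 1.30 and 0.83 in the authors' deposited table. Edn3, an endothelin, and Itih5, which stabilises hyaluronan, stood at 0.63 and 0.96 and at 0.34 and 0.59 in the authors' deposited table. The falls called at both times were Cd163, Cd209f, Cd209b, Lad1, Snx22, Gucy2f, Inava, Aldh1a3, which makes retinoic acid, and Nrarp, a Notch target.

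Over all 548 rises outside the set-aside lists, the 12-week median was 0.07 and 75.2% lay above 0, against 49.0% of all genes, in the authors' deposited table. Over the 435 falls the 12-week median was -0.05 and 69.0% lay below 0, against 51.0% of all genes (the authors' deposited table). The mitosis genes had a 12-week median of 0.39, the basement membrane genes 0.13, the cholesterol genes 0.04 and the replication genes 0.04, with 0, 5, 0 and 0 of them called in the authors' deposited table. The median of the 20 fibroblast genes was 0.11 at 5 dpi and 0.41 at 12 weeks in the authors' deposited table. At 12 weeks 18 of the 20 lay above 0 and 2 were called, among them Pdgfra, which was lower.

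**Figure D4:**
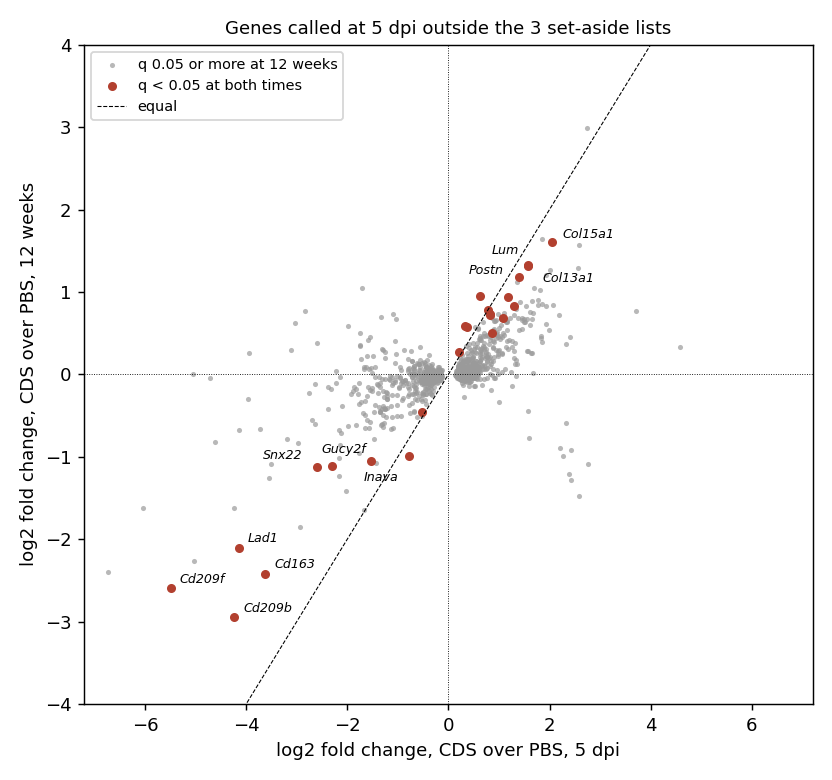
Log2 fold change of CDS over PBS at 5 dpi (x axis) and at 12 weeks (y axis) of the 983 genes called at 5 dpi outside the set-aside lists. Red points are called at both times and the dashed line marks equal values; Col15a1 lies at 2.04 and 1.61, and most grey points lie near 0 at 12 weeks.

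The difference between the times was tested for 272 genes, those with a p recovered at both, and 47 passed at an adjusted p under 0.05 (two-sided z of the difference, Benjamini-Hochberg adjustment). These genes were chosen by a small p at 12 weeks, and most genes called at 5 dpi could not enter. Of the 24 genes called at both times outside the set-aside lists, 5 differed, and all were falls that were smaller at 12 weeks: Cd163, Cd209f, Lad1, Snx22 and Gucy2f. Snx22 stood at -2.60 and -1.12 and Lad1 at -4.14 and -2.10 in the authors' deposited table (adjusted p of the difference 1.41e-06 and 0.00225). For Col15a1 the difference, 12 weeks minus 5 dpi, was -0.43 (adjusted p = 0.122), for Lama1 -0.40 (0.0604) and for Col13a1 -0.26 (0.514), none of which passed. Tgfbi was smaller at 12 weeks, at 1.65 and 0.67 in the authors' deposited table, with a difference of -0.98.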

How the data were processed

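RNA of medial prefrontal cortex was compared between CDS and PBS samples, 5 in each of 4 groups. Per the labels' protocols, stranded libraries were made from 400 ng of total RNA after ribosomal depletion. Per the submitters' processing notes, STAR, featureCounts and DESeq2 were used with GRCm38.p5, without versions or a strand setting. Per the file headers, each of the 2 tables the authors deposited, 1 per time, gives every gene a log2 fold change and a q-value. Neither table lists values by sample, and 0 columns of such values were left unused. Depth is unknown.

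Genes were called from the deposited q-values at 0.05. These were taken as a Benjamini-Hochberg adjustment over 20375 genes, p was recovered by undoing it, and the SE is the log2 fold change over the z of that p. At 12 weeks 20103 genes share the highest q, so p was recovered for 272. The steps were tested on simulated data. Of 4083 genes deposited with no symbol, 4015 were named through their gene ID. GENCODE M21 on GRCm38 gave places and classes of 20306 genes. Promoters and microRNAs came from RefSeq (GRCm38.p6). Analysis used Python 3.11.15, pandas 2.3.3, numpy 2.4.6 and scipy 1.17.1.

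Members, lists and families were chosen with earlier results of these data known, and 15 of the lists, those for matrix, mitosis, replication, cholesterol, reactive astrocytes, innate adaptors, the olfactory bulb, neuronal filaments, FXYD proteins and cell types, after the values were seen. Lists carry no test, and no count of theirs is independent support. Genes named were the 25 rises and 25 falls with the smallest q outside the set-aside lists, the 12 largest each way with an implied SE under 0.5, up to 4 called members of each list and family, runs of at least 3 neighbours and 3 anchors. Other genes, such as members not called, were named after their values were seen. Other settings tried were thresholds of 0.01 and 0.1 on q, a 1.5-fold minimum, Bonferroni correction, protein-coding genes alone and subtraction of the class median. Some genes are not reported here.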

Additional observations from a re-analysis of the deposited data

Results flagged for a closer look

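The log2 fold changes of 17 named genes differed between the times by the test of the difference itself, at an adjusted p under 0.05 over the 272 genes that could be tested. Differences are given as 12 weeks minus 5 dpi. Of these genes, 16 had a fall at 5 dpi that was smaller at 12 weeks, and Tgfbi had a rise that was smaller, with a difference of -0.98. Outside the set-aside lists the differences were 4.41 for Irx1, 2.90 for Cd209f, 2.28 for Fam89a, 2.04 for Lad1, 1.48 for Snx22, 1.20 for Cd163, 1.18 for Gucy2f, 0.69 for Prkcq and 0.61 for Pde3b. In the set-aside lists they were 2.36 for Gpr17, 2.25 for Slc2a5, 2.20 for Matn4, 1.25 for Pdgfra, 1.11 for Cx3cr1, 0.87 for Lhfpl3 and 0.61 for Olig2. The genes that entered this test had a small p at 12 weeks, and the cause of the differences was not tested.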

How the results depend on the processing

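No paired analysis was possible because neither table lists values by sample, and for the same reason no replicate could be left out. The counts of called genes, given as higher and lower, were 560 and 647 at 5 dpi, and 548 and 435 outside the set-aside lists. They became 271 and 329, and 263 and 167, at q under 0.01. At q under 0.1 the falls outside the lists became 702. With a fold of at least 1.5 added they became 212 and 391, and 204 and 217, so that falls then outnumber rises outside the lists. With Bonferroni adjustment they became 69 and 150, and 65 and 52. With protein-coding genes alone or the class median subtracted every one of these counts stayed within 1.5 times. The calls shared by both times were 23 at q under 0.01, against 36, and the genes whose difference passed were 88 when all genes entered with at least the 5 dpi error in place of the missing 12-week one, against 47. No direction of the 331 genes covered by the naming rule reversed. This shows little, since the thresholds and the choice of genes leave the deposited fold changes as they are. Only subtraction of the class median alters them, by 0.002 for protein-coding genes. Of the 331, 8 lost their call with the class median subtracted, 100 at q under 0.01, 134 with the fold and 213 with Bonferroni adjustment. Of the cholesterol genes 1 and of the Zfp genes 2 kept a fold of 1.5. Of the mitosis genes 2 passed Bonferroni adjustment, against 11 of the basement membrane genes. The causes were not tested. Depth is unknown and sets no stated limit.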

Other observations

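Most myelin genes lay above 0 at both times without a call. Of 14, 13 were above 0 at 5 dpi and 14 at 12 weeks, with medians of 0.48 and 0.44 in the authors' deposited table, and 7 had an unadjusted p under 0.05 at 5 dpi.

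A total of 10 called genes stood above 1 at 5 dpi and below -0.4 at 12 weeks, a group chosen after its values were seen. They were Kcnn4, Itgal and Spn, all known from leukocytes, and 7 predicted genes, Gm10717, Gm10718, Gm10722, Gm10800, Gm10801, Gm11168 and Gm21738. The 7 predicted genes lay between 2.20 and 2.76 at 5 dpi, with implied SE from 0.64 to 0.81, and between -1.47 and -0.89 at 12 weeks in the authors' deposited table. The difference between the times could not be tested for any of the 10.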
